A study of Drosophila melanogaster with 6 samples.

Results

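The genes described here are the members of the Hippo pathway of *Drosophila melanogaster*: *ft*, *ex*, *Mer*, *kibra*, *hpo*, *sav*, *wts*, *mats*, *yki* and *sd*. They were chosen by name, from what the pathway is known to contain, and the rule uses no measured value, although earlier results of these data were known when it was written. All 10 of the 10 symbols were found in the table of 17494 genes, and each was read in all 6 libraries and tested in all 3 comparisons.

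RNA was sequenced from whole adult ventral nerve cords (VNCs), the part of the fly central nervous system that lies in the thorax, with 2 libraries for each of 3 groups. The wild-type group (WT) consisted of normal VNCs, which contain no neuroblasts (NBs), the neural stem cells. In *poxn > prosRNAi* VNCs, a UAS-RNAi construct against *pros* (*prospero*, which drives NB daughter cells into differentiation) was expressed with *poxn-GAL4*, and in *poxn > prosRNAi, SypRNAi* VNCs a second construct against *Syp* (*Syncrip*, an RNA-binding protein that limits NB self-renewal) was added. In both, NB tumors were induced in the larva and were dissected together with the adult VNC that carried them, so that every tumor library also holds RNA of normal tissue. The driver flies of both tumor groups also carried *UAS-dicer2* and a nuclear mCherry reporter according to the methods of the study, and the GAL4 driver acts in a few NBs of the VNC. Whether the wild-type flies carried any of these is not given in the sources used here. The labels give an age of about 6 days for all groups, whereas the methods state another age. Each tumor sample was a pool of VNCs of both sexes, and according to the methods of the study the 2 samples of each group were technical replicates, so that the p-values given here measure the spread between these samples, which may be technical.

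The Hippo pathway is a kinase cascade that restrains tissue growth. The kinase Hpo with its scaffold Sav activates the kinase Wts with its cofactor Mats, and Wts phosphorylates the co-activator Yki, which is then kept out of the nucleus, where it would otherwise switch on growth and survival genes with the DNA-binding protein Sd. Ex, Mer and Kibra act at the cell cortex to promote this cascade, and the large cadherin Ft is a receptor that acts on it from the cell surface. In the larval brain the pathway is known for holding NBs in quiescence, and *ex*, *kibra* and *fj* are among the genes that Yki is known to regulate in other fly tissues.

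Each library held 86098417 to 128107088 counts, of which 15.6% to 23.8% fell on ribosomal RNA genes. The targeted gene *pros* had 2504 and 2335 CPM (counts-per-million, here scaled with edgeR's TMM factors) in WT, 736 and 808 in *poxn > prosRNAi* and 1045 and 1254 in *poxn > prosRNAi, SypRNAi*. *Syp* had 699 and 688 CPM in WT, 2066 and 1762 in *poxn > prosRNAi* and 422 and 459 in *poxn > prosRNAi, SypRNAi*. *pros* was therefore lower in both tumor groups than in WT, and *Syp* was lowest in *poxn > prosRNAi, SypRNAi*, the direction of the labels. How far the RNAi, rather than the cell types present, accounts for the fall of *pros* from WT was not tested. The cell type markers moved with the groups. Summed over 6 NB markers the level was 11.7 to 12.6 CPM in WT against 2266 to 2423 and 1760 to 1919 CPM in the 2 tumor groups, while 10 neuronal markers summed to 7527 to 7605 CPM in WT against 1238 to 1471 and 1874 to 2574 CPM. All 10 neuronal and all 8 glial markers were lower, and all 6 NB markers were higher, in *poxn > prosRNAi* than in WT. In *poxn > prosRNAi, SypRNAi* against WT, 9 of the neuronal markers were lower and 1 was not called, and all 6 NB markers were higher. Of the glial markers 7 were lower and 1 was higher, *Eaat1*, with 326 and 333 CPM in WT and 451 and 509 CPM in this tumor group. Markers of other tissues moved too: all 12 muscle, 6 fat body and 5 hemocyte markers and 3 of 4 tracheal markers were lower in *poxn > prosRNAi* than in WT, and in *poxn > prosRNAi, SypRNAi* 8 of the muscle and 2 of the tracheal markers were higher, 2 of each were lower and all fat body and hemocyte markers were lower. In WT the muscle markers summed to 860.0 to 1253 CPM, the fat body markers to 5716 to 6638 CPM, the hemocyte markers to 185 to 218 CPM and the tracheal markers to 25.4 to 25.5 CPM. In the 4 tumor libraries the hemocyte markers summed to 26.6 to 36.0 CPM and the tracheal markers to 7.49 to 12.7 CPM. Between the tumor groups, 12 muscle markers summed to 213 to 214 CPM in *poxn > prosRNAi* and 1134 to 1918 CPM in *poxn > prosRNAi, SypRNAi*, and 6 fat body markers to 993 to 1573 and 229 to 329 CPM. No marker was at 0 in both libraries of a group.

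Tumor-bearing VNCs of both genotypes differed from WT in most Hippo pathway genes. *ft* and *ex*, which act upstream of the cascade, rose most, *sd* and *sav* rose by 0.82 to 1.12 on the log2 scale, *hpo* and *mats* were moderately higher, *yki* was lower and *wts* showed no detectable difference. In *poxn > prosRNAi* against WT, 7 of the 10 genes rose and 1 fell at an adjusted p under 0.05 (edgeR's quasi-likelihood test, Benjamini-Hochberg adjustment over all genes tested). This share has to be read against the whole transcriptome, in which 82.6% of 14162 genes passed the same test, 41.9% upward and 40.7% downward. With library totals alone as the scaling, 4 of the 10 genes rose and 1 fell. In *poxn > prosRNAi, SypRNAi* against WT, 6 rose and 2 fell, beside 76.5% of 14289 genes, 39.8% upward and 36.7% downward. At an adjusted p under 0.001 there were 6 and 5 of the 10 genes, beside 54.6% and 37.0% of all genes. The median absolute log2 fold change of the 10 genes, 0.56 and 0.76 in the 2 comparisons, was below that of all genes tested, 1.30 and 1.16. The 2 comparisons share the WT libraries, and so do not support one another as independent measurements. In these bulk samples, fewer cells of a type and less RNA per cell cannot be told apart, and the part that the changed levels of NB, neuronal, glial, muscle, fat body, hemocyte and tracheal markers have in each difference from WT was not tested.

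**Figure D1:**
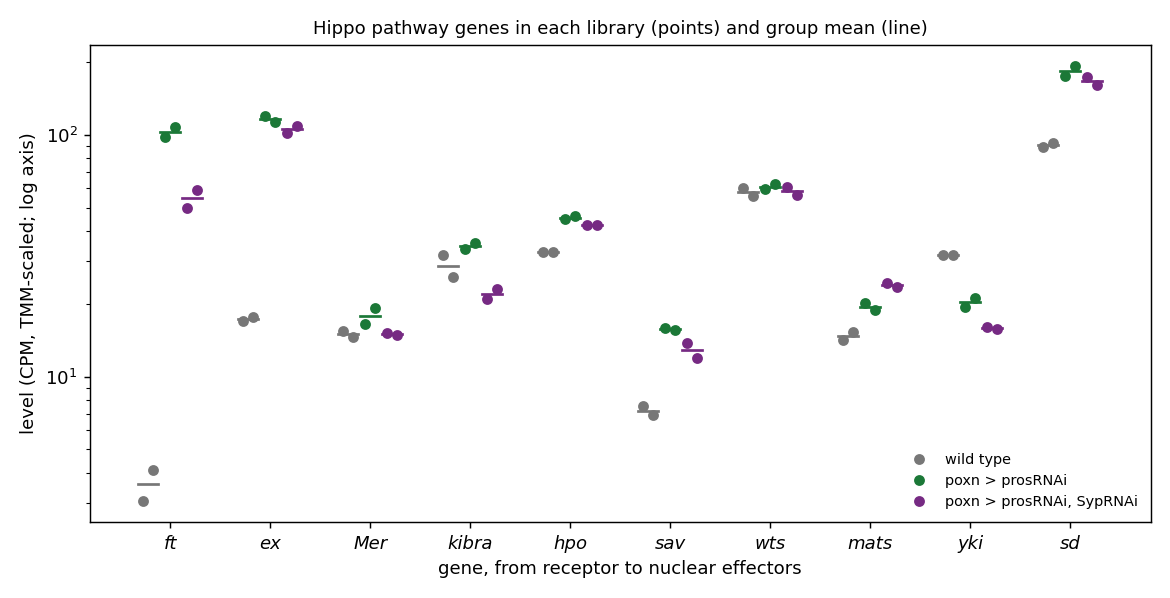
Level of each Hippo pathway gene in CPM (TMM-scaled, log axis) in the 2 libraries of WT, *poxn > prosRNAi* and *poxn > prosRNAi, SypRNAi* VNCs; points are libraries and short lines group means. The WT libraries of *ft* lie at 3.07 and 4.12 CPM, far below all 4 tumor libraries at 50.0 to 107 CPM, whereas the libraries of *wts* lie at 56.1 to 62.7 CPM in all groups.

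*ft* encodes an atypical cadherin of the cell surface and a tumor suppressor of the imaginal discs. The gene (FBgn0001075) lies on chromosome 2L from 4198404 to 4221796, on the minus strand, and has 16852 bases of exon in 9 blocks, the longest exonic sequence of the 10 genes. It was close to silent in WT, with 354 and 545 counts, or 3.07 and 4.12 CPM. It reached 98.1 and 107 CPM in *poxn > prosRNAi* and 50.0 and 59.3 CPM in *poxn > prosRNAi, SypRNAi*. The 3 groups did not overlap, and the *poxn > prosRNAi* libraries were the highest. The log2 fold change of *poxn > prosRNAi* over WT was 4.83 (95% interval 4.42 to 5.25, edgeR adjusted p = 7.45e-06), a 28.5-fold difference that ranked 260th in absolute size among 14162 genes, within the top 1.84%. In *poxn > prosRNAi, SypRNAi* the log2 fold change over WT was 3.91 (3.41 to 4.42, edgeR adjusted p = 1.18e-04). These rises kept their direction and their side of the threshold in all 11 other settings, with log2 values of 4.54 to 5.06 and of 3.75 to 4.16.

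The genes known to act with *ft* were then examined, from a list of 8. The gene of the ligand was low in every group. *ds*, which encodes the cadherin that binds Ft on the neighboring cell, was low throughout, with 1.27 and 1.91 CPM in WT, 1.32 and 0.580 in *poxn > prosRNAi* and 1.57 and 1.72 in *poxn > prosRNAi, SypRNAi*, and it passed no test (edgeR adjusted p of 0.173 and 0.890 against WT). Of the 8 genes, 6 rose and 1 fell in each tumor group against WT, beside 82.6% and 76.5% of all genes called in either direction. With at least 10 counts required in all libraries, 5 rose and 1 fell in each. The median log2 fold changes were 3.72 and 2.54, beside medians of 0.01 and 0.04 over all genes tested.

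*fj*, which encodes a Golgi kinase that phosphorylates the cadherin domains of Ft and Ds, had 8 and 26 counts in WT (0.0693 and 0.197 CPM) and 11.6 and 11.9 CPM in *poxn > prosRNAi* and 13.6 and 11.1 CPM in *poxn > prosRNAi, SypRNAi*. Its log2 fold changes over WT were 6.25 (SE 0.372, edgeR adjusted p = 3.26e-05) and 6.34 (SE 0.464, edgeR adjusted p = 3.37e-04). It was thus barely detected in WT and present at about the same level in both tumors. *d* (*dachs*), encoding the unconventional myosin that acts against Wts when Ft is inactive, had 0.503 and 0.461 CPM in WT, 16.0 and 15.8 in *poxn > prosRNAi* and 5.54 and 4.64 in *poxn > prosRNAi, SypRNAi*. *Dlish*, whose product binds Dachs and helps to bring it to the membrane, had 0.373 and 0.582, 12.5 and 11.3, and 7.17 and 6.06 CPM in the same order. *lft* (*lowfat*), whose product binds the intracellular domains of Ft and Ds, had 1.33 and 1.58, 23.4 and 19.4, and 5.77 and 4.02 CPM. These 3 genes therefore followed the order of *ft*, with the highest level in *poxn > prosRNAi* and a lower one in *poxn > prosRNAi, SypRNAi* that was still above WT. *Fbxl7*, encoding an F-box protein that works downstream of Ft, rose by 3.58 and 3.43 on the log2 scale and did not separate the tumors. *dco*, the casein kinase that phosphorylates the intracellular domain of Ft, rose by only 0.46 and 0.44, and with library totals alone as the scaling its first value was 0.17 (edgeR adjusted p = 0.122). *app*, which encodes a palmitoyltransferase that regulates Dachs and Ft, was the gene of the list that fell, from 100.1 and 94.4 CPM in WT to 47.6 and 49.5 and to 50.8 and 54.6 CPM.

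**Figure D2:**
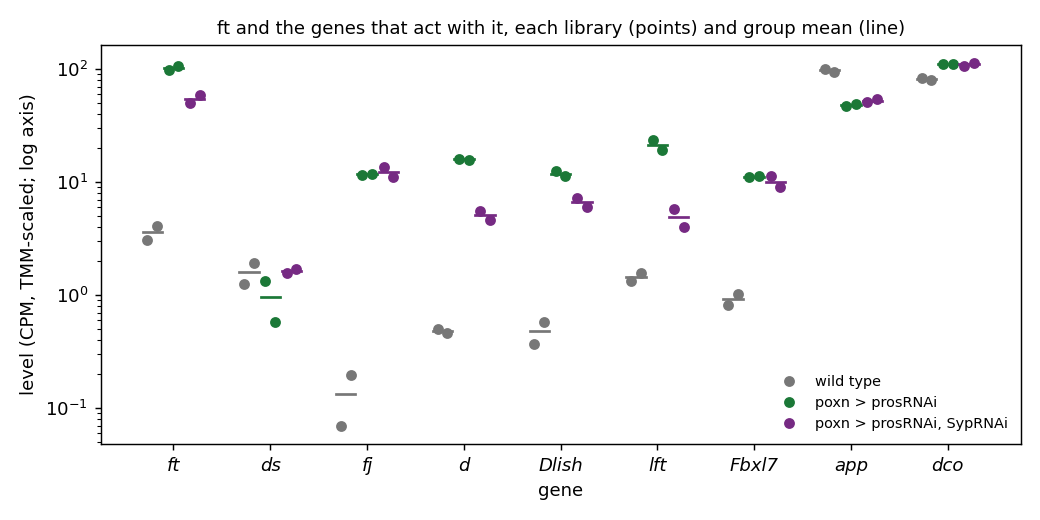
Level of *ft* and of the 8 genes that act with it in CPM (TMM-scaled, log axis); points are the 2 libraries of a group and short lines group means. *ft*, *d*, *Dlish* and *lft* are highest in *poxn > prosRNAi*, intermediate in *poxn > prosRNAi, SypRNAi* and lowest in WT, *fj* and *Fbxl7* are alike in both tumors, and *ds* lies between 0.580 and 1.91 CPM in all 6 libraries.

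Among the 3 cortical regulators, the difference from WT was concentrated in *ex*. *ex* encodes a FERM-domain protein of the apical cortex that recruits the cascade and also binds Yki. It lies on chromosome 2L from 431227 to 448701 (FBgn0004583, plus strand, 6672 bases of exon in 6 blocks). Its level was 17.0 and 17.7 CPM in WT, 119 and 113 in *poxn > prosRNAi* and 102 and 109 in *poxn > prosRNAi, SypRNAi*, so that all 4 tumor libraries stood well above both WT libraries. The log2 fold changes over WT were 2.75 (2.56 to 2.93, edgeR adjusted p = 5.58e-06) and 2.60 (2.39 to 2.81, edgeR adjusted p = 5.83e-05), a 6.71-fold and a 6.06-fold difference. Of its exonic bases, 6.72% are shared with *crq* on the opposite strand, and since the counting did not use strand, reads there were counted for both genes. The counts of *crq* were lower in every tumor library (4257 to 5396) than in WT (9508 and 11569), the opposite direction to *ex*.

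*Mer*, the fly homolog of the human tumor suppressor NF2 and a partner of Ex, lies on chromosome X from 19689697 to 19693500 (FBgn0086384, minus strand). It had 15.4 and 14.6 CPM in WT, 16.5 and 19.2 in *poxn > prosRNAi* and 15.1 and 14.8 in *poxn > prosRNAi, SypRNAi*. Its log2 fold change of 0.26 in *poxn > prosRNAi* against WT stood at the threshold (0.01 to 0.50, edgeR adjusted p = 0.04999), lost the call or its direction in 9 of 11 other settings and turned to -0.03 with library totals alone, and in *poxn > prosRNAi, SypRNAi* the difference from WT was -0.01 (-0.20 to 0.18, edgeR adjusted p = 0.875). *kibra*, whose product acts with Ex and Mer at the cortex, lies on chromosome 3R from 14697689 to 14724261 (FBgn0262127, minus strand) and had 31.7 and 25.8 CPM in WT, 33.8 and 35.8 in *poxn > prosRNAi* and 20.8 and 23.0 in *poxn > prosRNAi, SypRNAi*. With the TMM scaling the mean of *kibra* thus lay above WT in *poxn > prosRNAi* and below it in *poxn > prosRNAi, SypRNAi*. The first log2 difference was 0.28 (0.00 to 0.56, edgeR adjusted p = 0.0596), and 0.002 with library totals alone (edgeR adjusted p = 0.986). Without WT replicate 1 the value was 0.43, and without WT replicate 2 it was 0.14. In the main setting the first difference did not pass the test. The second passed it (-0.40, -0.75 to -0.05, edgeR adjusted p = 0.0444), but not without WT replicate 1 (-0.21, edgeR adjusted p = 0.162) or without *poxn > prosRNAi, SypRNAi* replicate 1 (-0.30, edgeR adjusted p = 0.121).

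The core cascade rose in its cofactors and its upper kinase but not detectably in *wts*. *hpo*, the Ste20-like kinase at the top of the cascade, lies on chromosome 2R from 19493996 to 19496856 (FBgn0261456, minus strand). Its libraries of a group lay close to one another, at 32.6 and 32.7 CPM in WT, 44.8 and 46.0 in *poxn > prosRNAi* and 42.4 and 42.4 in *poxn > prosRNAi, SypRNAi*. The log2 fold changes over WT were 0.48 (0.33 to 0.63, edgeR adjusted p = 6.86e-04) and 0.37 (0.22 to 0.52, edgeR adjusted p = 0.00370). With library totals alone they were 0.19 and 0.23 and no longer passed (edgeR adjusted p = 0.0981 and 0.0682). *Rep*, on the opposite strand, shares 4.64% of the exonic bases of *hpo*.

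*sav*, the scaffold that joins Hpo to Wts, lies on chromosome 3R from 23058609 to 23061304 (FBgn0053193, minus strand, 3.27% of its exonic bases shared with *CG17119* on the same strand). It had the largest relative rise of the 4 core genes in *poxn > prosRNAi*, from 7.52 and 6.93 CPM in WT to 15.8 and 15.5, and reached 13.7 and 12.0 CPM in *poxn > prosRNAi, SypRNAi*. The log2 fold changes were 1.12 (0.90 to 1.34, edgeR adjusted p = 9.14e-05) and 0.82 (0.53 to 1.11, edgeR adjusted p = 0.00218). All 4 tumor libraries were above both WT libraries.

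*mats*, the Mob-family cofactor that activates Wts, lies on chromosome 3R from 22421161 to 22423302 (FBgn0038965, plus strand) and had 14.2 and 15.3 CPM in WT, 20.1 and 18.8 in *poxn > prosRNAi* and 24.4 and 23.4 in *poxn > prosRNAi, SypRNAi*. Unlike *hpo* and *sav*, it was highest in *poxn > prosRNAi, SypRNAi*. The log2 fold changes over WT were 0.40 (0.21 to 0.60, edgeR adjusted p = 0.00437), which became 0.12 and lost the call with library totals alone (edgeR adjusted p = 0.375), and 0.69 (0.51 to 0.87, edgeR adjusted p = 8.19e-04). *wts*, the kinase that phosphorylates Yki, lies on chromosome 3R from 30789625 to 30806619 (FBgn0011739, minus strand). Its 60.4 and 56.1 CPM in WT overlapped with 59.6 and 62.7 CPM in *poxn > prosRNAi* and 61.1 and 56.3 CPM in *poxn > prosRNAi, SypRNAi*. The differences were 0.07 (-0.11 to 0.26) and 0.01 (-0.19 to 0.20) on the log2 scale, with edgeR adjusted p of 0.373 and 0.944. With library totals alone the values were -0.21 and -0.13.

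The 2 nuclear effectors went in opposite directions. *yki*, the co-activator that the cascade restrains, lies on chromosome 2R from 24065975 to 24068485 (FBgn0034970, minus strand, 1525 bases of exon, the shortest of the 10). It fell from 31.8 and 31.9 CPM in WT to 19.5 and 21.2 in *poxn > prosRNAi* and 16.0 and 15.7 in *poxn > prosRNAi, SypRNAi*, and the 3 groups did not overlap. The log2 fold changes were -0.64 (-0.81 to -0.48, edgeR adjusted p = 3.04e-04) and -1.01 (-1.16 to -0.87, edgeR adjusted p = 1.47e-04). *sd*, the TEAD-family DNA-binding partner of Yki, lies on chromosome X from 15804370 to 15827682 (FBgn0003345, plus strand, 17 exon blocks) and went from 89.2 and 92.2 CPM in WT to 176 and 192 in *poxn > prosRNAi* and 173 and 161 in *poxn > prosRNAi, SypRNAi*. Its log2 fold changes were 1.02 (0.84 to 1.20, edgeR adjusted p = 6.01e-05) and 0.88 (0.71 to 1.05, edgeR adjusted p = 3.26e-04). Both genes kept direction and call against WT in all 11 other settings.

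Genes whose level across the 6 libraries was most like that of *yki* and *sd* were looked for among the 13397 genes tested in all 3 comparisons, by the Euclidean distance of log2 CPM after each gene was centred on its own mean. For *yki* these were *crq* (0.0767), *l(2)k14710* (0.0866) and *Herc4* (0.0948), the first of which is the gene that shares exonic bases with *ex*. For *sd* they were *Socs36E*, an inhibitor of JAK/STAT signaling (0.0551), *312* (0.108) and *Acn* (0.108). *Socs36E* had 35.1 and 37.6 CPM in WT, 71.9 and 75.8 in *poxn > prosRNAi* and 69.4 and 64.0 in *poxn > prosRNAi, SypRNAi*, the same pattern as *sd* at a lower level in CPM.

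The comparison between the tumors shows which genes differ between tumor-bearing VNCs with and without the construct against *Syp*. Here *ft*, *kibra* and *yki* were lower and *mats* was higher in *poxn > prosRNAi, SypRNAi* than in *poxn > prosRNAi*, and the other 6 genes did not pass the test. These 4 calls stand beside 23.3% of 13703 genes called between the tumors, 10.9% upward and 12.4% downward (1489 and 1701 genes, against 2435 and 956 with library totals alone). At an unadjusted p under 0.05 there were 5 of the 10 genes, the fifth being *sav*, beside 39.7% of all genes. The log2 fold change of *ft* was -0.91 (-1.19 to -0.63, edgeR adjusted p = 0.0110), a 1.88-fold lower level, and that of *kibra* was -0.67 (-0.87 to -0.46, edgeR adjusted p = 0.0111), a 1.59-fold lower level. *yki* differed by -0.36 (-0.56 to -0.16, edgeR adjusted p = 0.0351) and *mats* by 0.30 (0.11 to 0.49, edgeR adjusted p = 0.0453). The call of *yki* was lost with library totals alone (-0.22, edgeR adjusted p = 0.113). That of *mats* was lost with no filter beyond 1 count (0.30, edgeR adjusted p = 0.0509). For each of the 4, the 2 libraries of one tumor lay on one side of those of the other. The same held for *hpo*, *sav*, *sd*, *ex* and *Mer*, which were not called, so this separation did not set the 4 apart. Of the 10 genes, 1 lay above and 8 below in *poxn > prosRNAi, SypRNAi*, and the share over all genes is not given here.

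The other 6 genes did not pass. The log2 difference was -0.10 for *hpo* (-0.25 to 0.05), -0.06 for *wts* (-0.25 to 0.13), -0.13 for *sd* (-0.34 to 0.07) and -0.14 for *ex* (-0.33 to 0.05), with edgeR adjusted p of 0.277, 0.620, 0.278 and 0.234. With library totals alone *hpo*, *wts* and *sd* turned to 0.04, 0.08 and 0.00. *sav* and *Mer* differed by -0.28 (-0.54 to -0.02) and -0.26 (-0.52 to 0.00) and did not pass after adjustment (edgeR adjusted p = 0.104 and 0.129). The median log2 difference of the 10 genes was -0.20, beside 0.02 over all genes tested.

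The calls between the tumors depended on the *poxn > prosRNAi* libraries. This was not particular to the 10 genes, since most calls over all genes tested were lost too when either of these libraries was left out. Without either *poxn > prosRNAi* library, none of the 10 genes passed: the log2 difference of *ft* was then -0.98 (edgeR adjusted p = 0.0645) without replicate 1 and -0.84 (edgeR adjusted p = 0.0743) without replicate 2, and that of *kibra* was -0.71 (edgeR adjusted p = 0.0692) and -0.62 (edgeR adjusted p = 0.0775), while over all settings the adjusted p of *ft* ranged from 1.77e-11 to 0.0743 and that of *kibra* from 1.78e-07 to 0.0775. *ft* and *kibra* remained called without either *poxn > prosRNAi, SypRNAi* library, and *yki* and *mats* did not. Over all alternatives the adjusted p of *yki* ranged from 0.0127 to 0.186 and that of *mats* from 0.0251 to 0.203. The muscle and fat body markers differed in the same comparison: 11 of 12 muscle markers were higher (median log2 3.29) and 5 of 6 fat body markers lower (median log2 -2.68) in *poxn > prosRNAi, SypRNAi*, and 1 of 6 NB markers was higher and 2 lower. Of all genes tested, 10.9% were called higher and 12.4% lower. The part of these markers in the differences of *ft*, *kibra*, *yki* and *mats* was not tested.

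**Figure D3:**
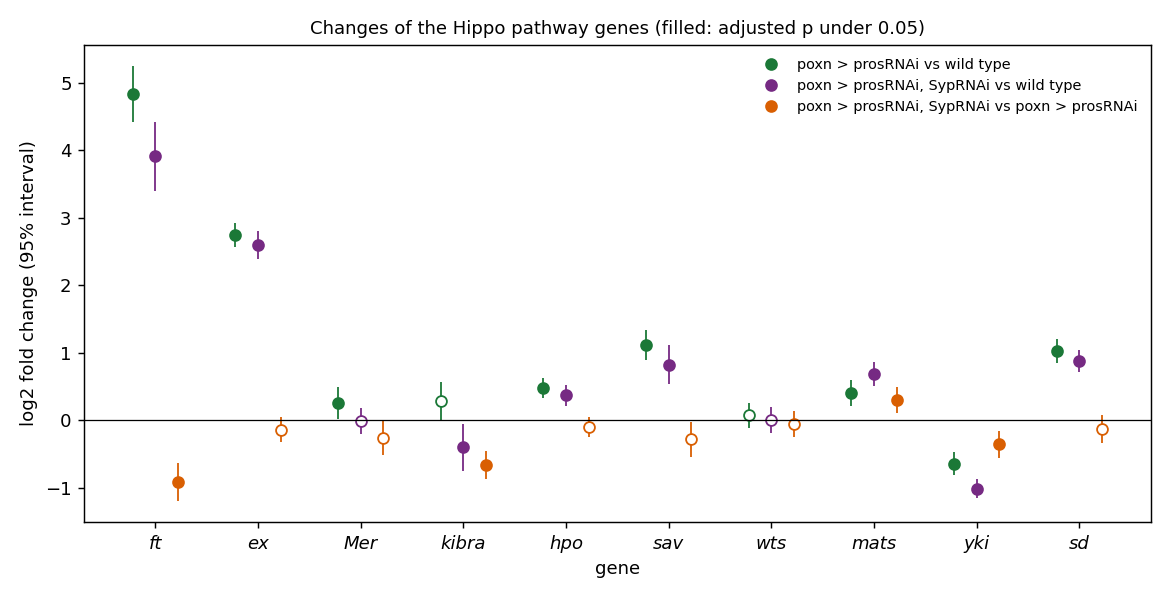
Log2 fold change of each Hippo pathway gene with its 95% interval in the 3 comparisons; filled points have an edgeR adjusted p under 0.05 and open points do not. *ft* lies at 4.83 and 3.91 against WT and at -0.91 between the tumors, and *yki* lies below 0 in all 3 comparisons, at -0.64, -1.01 and -0.36.

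Levels of different genes can be compared per length of exon, here as CPM divided by the exon length in kilobases (RPKM). In WT, *yki* had the highest level per length of the 10 genes, 20.9 ± 0.0722 RPKM (SD, n = 2), followed by *hpo* with 11.7 ± 0.0338, *sd* with 10.3 ± 0.246 and *wts* with 10.0 ± 0.530, of which *sd* and *wts* overlapped in their libraries. *mats* (8.60), *kibra* (5.00), *Mer* (4.42), *sav* (3.23) and *ex* (2.60) followed, with *kibra* and *Mer* overlapping, and *ft* was lowest with 0.213 ± 0.0443 RPKM. The highest mean level was 97.9 times the lowest.

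In *poxn > prosRNAi* the order was led by *sd* (21.0 ± 1.34 RPKM), *ex* (17.4 ± 0.723) and *hpo* (16.2 ± 0.314), and *yki* came next (13.3 ± 0.784). *mats* (11.3), *wts* (10.5), *sav* (7.01), *ft* (6.10), *kibra* (6.06) and *Mer* (5.26) came after these, and *ft* and *kibra* overlapped. The range was much narrower than in WT, with the highest mean 3.99 times the lowest. In *poxn > prosRNAi, SypRNAi* the same 3 genes led, *sd* (19.1), *ex* (15.8) and *hpo* (15.1), followed by *mats* (13.9), *yki* (10.4), *wts* (10.1), *sav* (5.75), *Mer* (4.40), *kibra* (3.81) and *ft* (3.24), with *yki* and *wts* overlapping and the highest mean 5.89 times the lowest. *ex* thus moved from the ninth place in WT to the second in both tumors, and *yki* from the first to the fourth and the fifth.

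**Figure D4:**
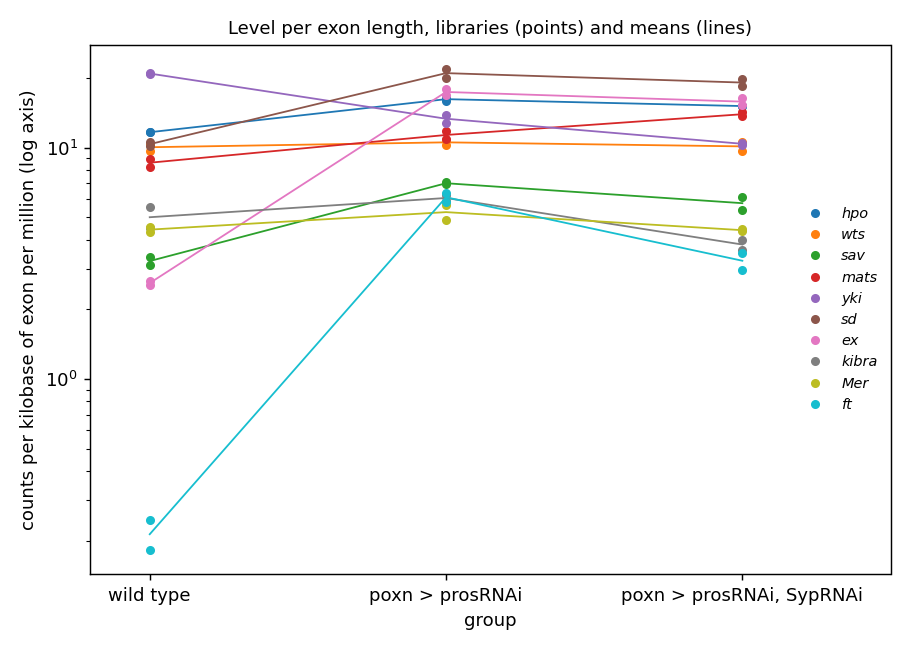
Level of the 10 Hippo pathway genes per exon length in RPKM (log axis) in the 3 groups; points are libraries and lines join group means. *yki* is the highest in WT at 20.9 and falls to 13.3 and 10.4, *ex* goes from 2.60 to 17.4 and 15.8, and *ft* from 0.213 to 6.10 and 3.24.

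Ratios between members within a library do not depend on the scaling between libraries. The per-length ratio of *yki* to *wts*, substrate to kinase, was 2.00 and 2.17 in WT, 1.24 and 1.28 in *poxn > prosRNAi* and 0.994 and 1.06 in *poxn > prosRNAi, SypRNAi*. Transcripts of the 2 genes were thus close to equal in number per length in the second tumor, and the groups did not overlap. The ratio of *yki* to *hpo* went from 1.79 in both WT libraries to 0.800 and 0.846 and then to 0.693 and 0.681. The ratio of *sd* to *yki*, DNA-binding partner to co-activator, went the other way, from 0.488 and 0.502 in WT to 1.57 and 1.58 in *poxn > prosRNAi* and 1.89 and 1.79 in *poxn > prosRNAi, SypRNAi*. *ex* relative to *Mer* stood at 0.560 and 0.617 in WT, at 3.68 and 2.98 in *poxn > prosRNAi* and at 3.43 and 3.76 in *poxn > prosRNAi, SypRNAi*, so that this ratio separated the tumors from WT but not from each other. *ex* relative to *kibra* was 0.461 and 0.591 in WT, 3.04 and 2.71 in *poxn > prosRNAi* and 4.20 and 4.10 in *poxn > prosRNAi, SypRNAi*.

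The rest of the pathway was described with 54 genes in 6 lists, of which the Ft branch is given above. In *poxn > prosRNAi* against WT 29 of the 54 rose, 16 fell and 9 did not pass, so that the share called was near the 82.6% of all genes. In *poxn > prosRNAi, SypRNAi* against WT the numbers were 27, 17 and 10, beside 76.5% of all genes called, and between the tumors 7 were higher, 12 lower and 35 not called, beside 23.3%. No list was tested as a whole.

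The polarity and junction genes that feed into the pathway were split. Of 15, 8 rose and 6 fell in *poxn > prosRNAi* against WT, with a median log2 fold change of 0.33, and 6 rose and 6 fell in *poxn > prosRNAi, SypRNAi*, with a median of 0.01. All genes tested were split as well, with 41.9% upward and 40.7% downward in the first comparison and 39.8% and 36.7% in the second. *l(2)gl*, a basolateral polarity protein that also acts in asymmetric NB division, rose by 2.69 and 2.72 on the log2 scale (56.5 and 60.3 CPM in WT, 361 to 395 CPM in the 4 tumor libraries). *ed*, an immunoglobulin-type adhesion molecule, rose by 1.87 and 1.47. In the opposite direction, *Schip1*, whose product links Ex to the kinase Tao, fell by 2.26 and 1.83, and *aPKC*, the apical kinase of the Par complex, fell by 0.95 and 0.86. *sdt*, the partner of the apical determinant Crb, fell by 1.57 in *poxn > prosRNAi* and by 0.64 in *poxn > prosRNAi, SypRNAi*. *crb* itself was at 16.6 and 16.0 CPM in WT, 6.62 and 6.14 in *poxn > prosRNAi* and 17.8 and 15.2 in *poxn > prosRNAi, SypRNAi*, so that the WT and double-knockdown libraries overlapped.

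The kinases and the phosphatase complex that act on Hpo and Sav were all called against WT, 6 of 9 upward and 3 downward in each tumor. This stands beside 82.6% and 76.5% of all genes called. With library totals alone 2 of the rises passed in each, and *Cka* (-0.098) and *Mob4* (-0.043) turned downward in *poxn > prosRNAi* without passing. The genes that fell under all 3 scalings were *Sik2* and *Sik3*, salt-inducible kinases that phosphorylate Sav, and *par-1*. *Sik3* went from 86.1 and 83.7 CPM in WT to 23.4 and 22.9 in *poxn > prosRNAi* and 46.4 and 49.5 in *poxn > prosRNAi, SypRNAi*. *Sik2* fell by 1.56 and 1.04 on the log2 scale. Among the subunits of the STRIPAK phosphatase complex, which dephosphorylates Hpo, *mts*, the catalytic subunit, rose by 0.68 and 0.83, and *Slmap*, which targets the complex to Hpo, rose by 0.78 in *poxn > prosRNAi*. In *poxn > prosRNAi, SypRNAi* the log2 fold change of *Slmap* over WT was 0.17 (edgeR adjusted p = 0.0436), a call that was lost with DESeq2's size factors and with library totals alone.

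The parallel NDR kinase branch, in which Trc and its scaffold Fry share Mob-family cofactors with the Hippo cascade, had 4 genes in the list. In *poxn > prosRNAi* against WT 1 rose and 1 fell (median log2 fold change -0.03), and in *poxn > prosRNAi, SypRNAi* 3 fell (median -0.44). Of all genes tested, 82.6% and 76.5% were called in these comparisons. *Mob2* fell by 1.29 and 1.32 on the log2 scale. *Mob3* stood at 0.19 in *poxn > prosRNAi* (edgeR adjusted p = 0.0489) and turned to -0.09 with library totals alone. *fry* and *trc* were lower in *poxn > prosRNAi, SypRNAi* than in WT, with log2 differences of -0.45 and -0.44 (edgeR adjusted p = 0.00830 and 0.00521).

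Of the 8 nuclear partners of Yki and Sd, 4 rose and 2 fell in each tumor against WT, which is no larger a share than the 82.6% and 76.5% of all genes called. *tsh*, a zinc-finger protein that acts with Hth and Yki in the eye disc, rose by 1.28 and 1.63 on the log2 scale, *Ncoa6*, a subunit of a histone methyltransferase complex recruited by Yki, by 1.03 and 0.73, and *mask*, a cofactor of Yki, by 0.67 and 0.76. *Wbp2*, a WW-domain-binding protein that enhances Yki activity, fell by 0.89 and 1.30, and *vg*, the wing partner of Sd, fell by 2.30 in both. *Tgi*, which encodes the co-repressor that competes with Yki for Sd, had 16.6 and 16.2 CPM in WT, 26.7 and 28.4 in *poxn > prosRNAi* and 20.9 and 19.6 in *poxn > prosRNAi, SypRNAi*. Per length, the ratio of *Tgi* to *yki* was 0.329 and 0.320 in WT, 0.862 and 0.845 in *poxn > prosRNAi* and 0.823 and 0.784 in *poxn > prosRNAi, SypRNAi*. *Tgi* relative to *sd* went from 0.674 and 0.637 to 0.549 and 0.535 and to 0.435 and 0.439, so that *sd* rose more than *Tgi* did.

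Genes known as targets of Yki from other tissues moved in both directions. Of 10 targets in the table, 4 rose and 3 fell in *poxn > prosRNAi* against WT (median log2 fold change 0.28), and 5 rose and 2 fell in *poxn > prosRNAi, SypRNAi* (median 0.29). This is no larger a share than the 82.6% and 76.5% of all genes called. The bantam microRNA gene was listed under *mir-ban* and is not analysed here. *CycE*, the cyclin of the G1-to-S transition, went from 8.75 and 6.04 CPM in WT to 192 and 192 in *poxn > prosRNAi* and 203 and 161 in *poxn > prosRNAi, SypRNAi*, log2 fold changes of 4.70 and 4.61 (edgeR adjusted p = 1.09e-05 and 1.41e-04). *Myc*, the growth regulator, rose by 2.23 and 2.70, but 61.2% of its exonic bases are shared with other genes, so that its counts are uncertain. *Diap1*, the inhibitor of apoptosis and a standard readout of Yki in discs, had 121 and 134 CPM in WT, 139.7 and 144 in *poxn > prosRNAi* and 172 and 159 in *poxn > prosRNAi, SypRNAi*. Its difference did not pass in the first tumor (0.16, edgeR adjusted p = 0.0825, and -0.13 with library totals alone) and passed in the second (0.37, edgeR adjusted p = 0.00991), though not with library totals alone (0.23, edgeR adjusted p = 0.144). *dally*, a glypican, fell by 2.20 and 1.57, and the glypican gene *dlp* fell by 0.54 in *poxn > prosRNAi*. *CycE*, *Myc* and *E2f1* are also genes of dividing cells in general, and the NB markers rose in the same comparisons. Their part in these differences was not tested.

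Between the tumors, the 3 calls in the Ft branch were downward, and *ft* shared its direction with *d*, *Dlish* and *lft*. Of all genes tested, 12.4% were called lower, and with library totals alone 1 gene of the branch was called higher. The log2 differences were -1.64 for *d*, -0.85 for *Dlish* and -2.12 for *lft*, with edgeR adjusted p of 0.00581, 0.0191 and 0.00859. Without *poxn > prosRNAi* replicate 1 or replicate 2 none of the 3 passed, with -1.63 and -1.64 for *d* (edgeR adjusted p = 0.0557 and 0.0629) and -1.98 and -2.24 for *lft* (edgeR adjusted p = 0.0655 and 0.0638). *fj* (0.08), *Fbxl7* (-0.14), *dco* (0.00) and *app* (0.12) did not pass. The median of the 8 genes was -0.07. Of the 8 nuclear partners, *Tgi* (-0.44), *Wbp2* (-0.39), *Mad* (-0.32) and *Ncoa6* (-0.29) were lower, beside the same 12.4% of all genes. None of these 4 calls remained with library totals alone, where *hth* (0.38) and *tsh* (0.50) were called higher instead.

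Among the polarity genes, *crb* and *sdt* were higher in *poxn > prosRNAi, SypRNAi* than in *poxn > prosRNAi*, by 1.37 and 0.94 on the log2 scale (edgeR adjusted p = 0.00738 and 0.00554), whereas *par-6* and *ed* were lower, at -0.41 and -0.38, calls that were lost with library totals alone. Among the kinases and phosphatase subunits, *Sik3* (1.05), *Sik2* (0.53) and *Mob4* (0.48) were higher and *Slmap* (-0.60) was lower. *trc* (-0.49) and *fry* (-0.31) of the NDR branch were lower, and the call of *fry* was lost with library totals alone (-0.18, edgeR adjusted p = 0.143). Of the targets, *dally* (0.64) and *dlp* (0.43) were higher, and *CycE* did not differ beyond its interval (-0.08, edgeR adjusted p = 0.686, and 0.061 with library totals alone). Of the 15 genes of these lists that the rule named in this comparison, *Sik3* and *sdt* still passed without *poxn > prosRNAi* replicate 1 and none did without replicate 2, while 13 and 10 passed without *poxn > prosRNAi, SypRNAi* replicate 1 and replicate 2. Neuronal markers were also higher in this comparison for 4 of 10 genes, and their part in the differences of *crb*, *sdt*, *Sik2*, *Sik3*, *dally* and *dlp*, which fell with the neuronal markers in *poxn > prosRNAi* against WT, was not tested.

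**Figure D5:**
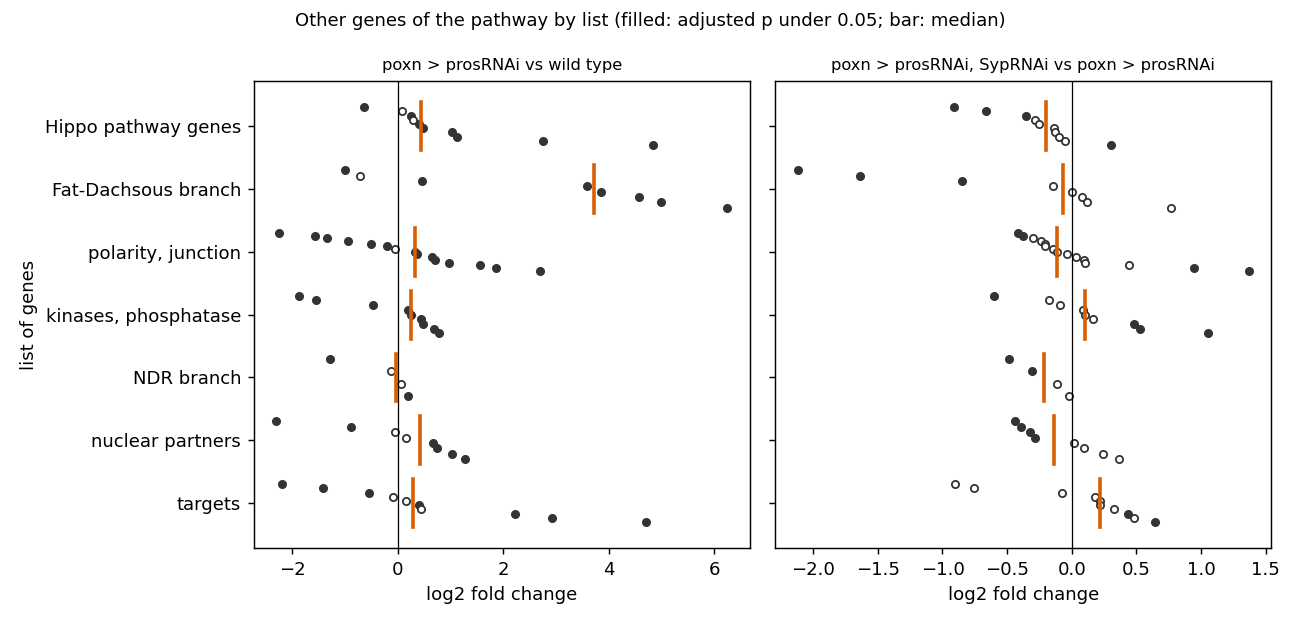
Log2 fold change of every gene of the 10 Hippo pathway genes and of the 6 further lists, in *poxn > prosRNAi* against WT (left) and between the tumors (right); each point is a gene, filled where the edgeR adjusted p was under 0.05, and the bar is the median of the list. The Ft branch has a median of 3.72 against WT, the other 5 lists have medians between -0.03 and 0.42, and between the tumors all medians lie between -0.21 and 0.22.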

How the data were processed

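The data were 6 bulk RNA-seq libraries. Total RNA of dissected VNCs was depleted of ribosomal RNA and made into stranded paired-end libraries, although a label also reads PolyA RNA. The authors aligned the reads with Subread and counted them per gene over exons with featureCounts 1.5.0 and the FlyBase 6.19 annotation of the dmel6 genome. The GEO processing notes name another build, and the gene positions matched Release 6, with 99.3% of 14392 matched symbols at the same start and end. Per the file header, reads were counted singly, without strand, and for every gene they overlapped. Coordinates and exon overlaps are those of Release 6. Identifiers came from an Ensembl annotation.

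The deposited values are raw counts, one column a library. There were 0 columns left out. The columns were tested with edgeR 4.0.16 in R 4.3.3 (limma 3.58.1): TMM, filterByExpr with a minimum count of 10, a prior count of 2, the quasi-likelihood test on the 4 libraries of each comparison, and Benjamini-Hochberg adjustment over all genes tested. The steps were tested on simulated data in which few genes changed, up and down alike. The scaling was therefore not tested under changes as broad as those against WT. A call is an adjusted p under 0.05, a threshold chosen knowing that edgeR called 0 genes at 0.001 between the tumors (DESeq2 1.42.0 was an alternative test). Levels are CPM with TMM factors over all 6 libraries, and RPKM were computed from the counts with the exon lengths in the table. Replicates differed on average by far more than counting noise (mean chi-square per degree of freedom of 79.2 to 162), and no library was taken for a copy of another. This is a mean over genes with library totals alone as the scaling. Abundant genes and scaling offsets can raise it, so it does not give the precision of most genes.

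The members, the lists and the tests were chosen with earlier results of these data known. Of each list and comparison, the rule for naming took up to 2 called genes with the largest rise and 2 with the largest fall, with libraries that did not overlap and a mean of at least 1 CPM. Other genes of the lists were named after their values were seen. Of 106 listed symbols, 105 were in the table. The comparisons were repeated with library totals alone or DESeq2's size factors as the scaling, with 2 other filters (no filter beyond 1 count, and a minimum of 10 counts in all libraries), with the Wald test of DESeq2, with the 6 libraries fitted together, with a block for the replicate number, at a threshold of 0.001 and without each library in turn. Figures were drawn with matplotlib 3.10.9.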

Additional observations from a re-analysis of the deposited data

How the results depend on the processing

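Over the 10 Hippo pathway genes and the 3 comparisons, 289 of 330 alternative values kept their direction and side of the threshold, 28 lost the call, 1 gained it and 12 turned in sign. For the other genes named by the rule, 9 values lost the call and 1 turned in sign in *poxn > prosRNAi* against WT, none of 219 did in *poxn > prosRNAi, SypRNAi* against WT, and 40 of 165 lost the call between the tumors. Library totals alone moved the median log2 fold change of all genes to -0.27 and -0.09 against WT and to 0.15 between the tumors, and the members called in *poxn > prosRNAi* against WT from 8 to 5. Among the 10 genes and those named by the rule, the values that turned in sign under it were *wts* (-0.21), *Mer* (-0.0279) and *Mob3* (-0.0904) in *poxn > prosRNAi* against WT, *wts* (-0.13) in *poxn > prosRNAi, SypRNAi* against WT, and *hpo* (0.0363), *wts* (0.0790) and *sd* (0.0016) between the tumors. In *poxn > prosRNAi* against WT, *wts*, *Mer* and *Mob3* then still lay above the median of all genes. *wts* in *poxn > prosRNAi, SypRNAi* against WT also turned in sign with DESeq2's size factors (-0.0401), with a minimum of 10 counts in all libraries (-0.0139), with the Wald test of DESeq2 (-0.0399) and without *poxn > prosRNAi, SypRNAi* replicate 1 or WT replicate 2 (range without a library -0.0289 to 0.0940), and *Mer* did without WT replicate 1 (range -0.0338 to 0.0597). At a threshold of 0.001, 7735 genes were called in *poxn > prosRNAi* against WT and 5286 in *poxn > prosRNAi, SypRNAi* against WT, with 5 members in the latter. Between the tumors edgeR then called 0 genes and 0 members, although 5435 genes had an unadjusted p under 0.05 and the Wald test of DESeq2 called 4077 genes at an adjusted p under 0.05. Leaving out 1 library gave 7 to 8 members called in each comparison with WT, and between the tumors 0 to 2 members and 6 to 2836 genes, with 235 genes without *poxn > prosRNAi* replicate 1, 6 without replicate 2 and 2108 without *poxn > prosRNAi, SypRNAi* replicate 2. The lone library of a group is there assumed to vary like the other group. The labels do not say that replicate numbers pair the samples, and with 2 numbers a group they were not taken to. Deviations of libraries with the same number correlated across 14451 genes at -0.235 and -0.0620 between WT and each tumor and at 0.334 between the tumors, and with the replicate number as a block 7, 7 and 4 members and 11274, 10353 and 3466 genes were called. The block ended the calls of *Mer* in *poxn > prosRNAi* against WT (edgeR adjusted p = 0.0710) and of *kibra* in *poxn > prosRNAi, SypRNAi* against WT (edgeR adjusted p = 0.0707). The cause of these changes was not tested.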
